A study of Mus musculus with 57 samples.

Results

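The genes described here are 39 transporters and endocytic receptors of the kidney proximal tubule, followed through ischemia-reperfusion injury (IRI) of the mouse kidney. They were taken from a list of named genes, each read from the Affymetrix probe set that carries its symbol and no other. All 39 were found, each on 1 such probe set, among 19938 genes with a probe set of that kind, and all 39 were among the 19302 genes tested. The list covers carriers of phosphate and sulfate (4 genes), sugars (3), mono- and dicarboxylates (4), organic anions, cations and urate (12), amino acids and peptides (10), sodium, bicarbonate and water (3) and fatty acids (1), together with the endocytic receptors megalin and cubilin.

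The proximal tubule takes back most of the filtered sodium, glucose, phosphate, amino acids and small proteins, and secretes organic anions and cations into the urine. Apical sodium-coupled carriers of the brush border bring solutes in, basolateral carriers let them out or load organic ions from blood, and the receptors megalin and cubilin bind filtered proteins for endocytosis. The tubule is divided into early segments (S1 and S2) and a late straight segment (S3) in the outer medulla, and several carriers are known for being used mainly in one or the other.

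The study used 57 Mouse Gene 1.0 ST arrays in 19 groups, all from male kidneys, and 51 of them hold messenger RNA purified with ribosomes. In the method, translating ribosome affinity purification (TRAP), messenger RNA is recovered with ribosomes whose protein L10a is fused to eGFP. A Cre recombinase switches the fusion on from the Rosa26 locus under the CAGGS promoter. The tag is inherited by all descendants of a cell with Cre: six2-CRE marks nephron epithelium, foxd1-CRE interstitial cells, mesangial cells and pericytes and also podocytes, cdh5-CRE endothelium, and lyz2-CRE macrophages, monocytes and dendritic cells. Each of these lines, heterozygous for Cre and for L10a, had 3 arrays 24 h after bilateral IRI (28 min of warm ischemia), 3 after sham surgery and 3 without surgery, and the nephron line had 3 more at 4 h. Background purifications used 4 IRI and 2 sham arrays from wild type C57BL/6 kidneys without any tag, and 4 IRI and 2 sham arrays from L10a kidneys without Cre. The labels call the latter mice homozygous in 1 field and heterozygous in another, and describe their signal as coming from podocytes and part of the collecting duct. Whole-kidney total RNA came from L10a mice without Cre (3 IRI and 3 sham arrays). The strain label is a mix of C57BL/6 and 129 for all arrays, also those named wild type C57BL/6. Nephron mice were 8 weeks old after IRI (4 h and 24 h) and after sham surgery and 6 weeks old without surgery. Interstitial and endothelial mice were 6 weeks old, myeloid mice 9.5 weeks after IRI and 7 weeks in both control groups, and background and total RNA mice 8 weeks. The labels call the arrays biological replicates and say no more. P-values measure the spread of arrays within groups, pooled over all 57 arrays, and not that of the groups compared alone.

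Levels are log2 of the deposited intensity, and a difference is given in log2 units with the standard error (SE) of a limma fit over all 57 arrays. A gene is called, and is said to rise or fall, where the p adjusted by the Benjamini-Hochberg method over 19302 genes was under 0.05. The residual SD had a median of 0.154 over all genes and of 0.38 over the 39 members, so the pooled error of the members is wide. Fits limited to the groups compared are given where they moved a count by over 1.5 times, and for the nephron line at 24 h. The median intensity of an array was 105.8 to 128.4 for the 51 TRAP arrays but 43.9 to 53.3 for the 6 of total RNA, so no level is set across these kinds. Within groups, arrays correlated at 0.987 or more, apart from the IRI arrays of total RNA (mean correlation of an array with the others of its group 0.923 to 0.957) and of the wild-type background (0.976 to 0.987). Replicate 3 of the total RNA IRI group carried less of the injury marker Havcr1 (7.73) than its partners, and replicate 2 of the wild-type IRI group kept more of several members. Results that rest on these arrays are given with and without them. In a bulk sample, fewer cells of a type and less RNA per cell cannot be told apart.

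Promoters of 32 of the 39 members are in the RefSeq table used here (build GRCm38.p6, 250 bases before to 50 after the start). Shown are 6 of them, 4 of members that were not called and 2 of members that fell in the nephron line at 24 h, with matches to the binding letters of HNF1 and HNF4, transcription factors of proximal tubule identity, in capitals. The letters searched were GTTAAT (part of the HNF1 site, ATTAAC on the other strand) and CAAAGTCCA (an HNF4 site, TGGACTTTG on the other strand). The 4 shown with a match lie at chr13:55399398-55399697 on the plus strand (Slc34a1), chr19:8617746-8618045 on the plus strand (Slc22a6), chr19:8592932-8593231 on the plus strand (Slc22a8) and chr17:85028097-85028396 on the plus strand (Slc3a1). The pair without a match lies at chr3:28697653-28697952 on the plus strand (Slc2a2) and chr19:7711261-7711560 on the minus strand (Slc22a19). 
Slc34a1: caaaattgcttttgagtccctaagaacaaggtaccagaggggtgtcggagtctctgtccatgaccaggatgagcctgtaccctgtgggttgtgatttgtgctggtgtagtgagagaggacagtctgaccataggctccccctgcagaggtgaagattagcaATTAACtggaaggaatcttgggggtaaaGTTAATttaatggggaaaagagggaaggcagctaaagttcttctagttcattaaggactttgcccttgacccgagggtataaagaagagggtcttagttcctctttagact
Slc22a6: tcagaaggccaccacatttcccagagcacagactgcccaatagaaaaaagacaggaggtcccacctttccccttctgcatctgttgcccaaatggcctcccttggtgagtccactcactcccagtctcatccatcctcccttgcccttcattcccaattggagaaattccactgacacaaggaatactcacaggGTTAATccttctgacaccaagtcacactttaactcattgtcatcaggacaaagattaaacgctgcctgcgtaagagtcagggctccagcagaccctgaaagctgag
Slc22a8: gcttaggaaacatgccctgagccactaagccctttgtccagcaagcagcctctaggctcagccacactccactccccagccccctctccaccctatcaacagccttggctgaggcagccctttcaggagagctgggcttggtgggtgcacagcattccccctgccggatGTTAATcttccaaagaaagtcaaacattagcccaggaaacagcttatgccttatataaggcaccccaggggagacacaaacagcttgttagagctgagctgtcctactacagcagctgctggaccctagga
Slc3a1: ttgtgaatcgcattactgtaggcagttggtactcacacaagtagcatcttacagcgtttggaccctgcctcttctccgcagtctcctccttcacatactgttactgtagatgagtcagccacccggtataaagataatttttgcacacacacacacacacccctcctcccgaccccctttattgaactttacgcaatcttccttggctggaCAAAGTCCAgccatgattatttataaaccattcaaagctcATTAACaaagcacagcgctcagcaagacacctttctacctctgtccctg
Slc2a2: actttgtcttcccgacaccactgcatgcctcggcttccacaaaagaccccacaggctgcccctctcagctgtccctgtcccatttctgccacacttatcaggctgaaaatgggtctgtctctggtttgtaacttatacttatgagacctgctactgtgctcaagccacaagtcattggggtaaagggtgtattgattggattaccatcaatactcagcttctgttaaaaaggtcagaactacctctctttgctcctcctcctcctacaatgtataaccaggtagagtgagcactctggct
Slc22a19: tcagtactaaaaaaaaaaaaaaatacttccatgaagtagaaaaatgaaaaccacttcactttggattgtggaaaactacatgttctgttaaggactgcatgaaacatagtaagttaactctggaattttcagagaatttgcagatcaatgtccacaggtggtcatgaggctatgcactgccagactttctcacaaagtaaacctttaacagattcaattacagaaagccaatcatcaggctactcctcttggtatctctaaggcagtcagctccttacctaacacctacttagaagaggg

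GTTAAT, on either strand, stood in 5 of the 32 members' promoters (15.6%) and in 8.24% of the 27025 genes in the table. The 5 genes were Slc34a1, with matches that begin 61 and 89 bases before the start, Slc22a6 (56 bases before), Slc22a8 (81 bases before), Slc7a7 (86 bases before, in 1 of its 5 promoters) and Slc3a1, where the match follows the start. CAAAGTCCA stood in 1 member, Slc3a1 (39 bases before the start), or 3.12% against 0.555% of all genes, a count too small to set apart from that share. The motifs and the promoters shown were chosen with the changes known. Those shown leave out members with a match that fell and members without a match that were not called. Slc7a7, with a GTTAAT match, fell in the nephron line at 24 h. Slc13a3 and Slc17a1 were among the members without GTTAAT that were not called there. Of the 5 members with GTTAAT 1 fell, and of the 27 without it 22 fell. A match is a description of letters, and no relation between motif and change was tested.

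At 24 h after IRI, 27 of the 39 members fell in the nephron line and 0 rose, where 14.7% of all genes tested fell. The median change of the members was -1.02, and that of all genes -0.04. With limma, 29 members were lower and 0 higher at an unadjusted p under 0.05. A fall to less than 1 part in 2 was seen in 20 members and to less than 1 part in 4 in 8: Slc7a12, Slc13a2, Slc7a13, Slco4c1, Slc22a19, Slc2a2, Slc22a13 and Slc22a7. In 33 members all 3 IRI arrays lay below all 3 sham arrays, as they did for 28.4% of all genes. The count was 20 to 24 with any 1 of the 6 arrays left out, and 33, all lower, in a fit of these groups alone. By level in the nephron sham arrays, with a cut set after seeing the data, 8 of 17 members at log2 12 or above fell, with a median of -0.63. Below log2 12, 19 of 22 fell, with a median of -1.36. Slc34a1, Slc22a6 and Slc22a8 are among those at log2 12 or above. The highest value of any member in any array was 13.43, and that of any probe set 14.26. Whether changes are compressed at such high levels was not tested, so a small change there need not mean a kept level. A relation between level and change was not tested.

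**Figure D1:**
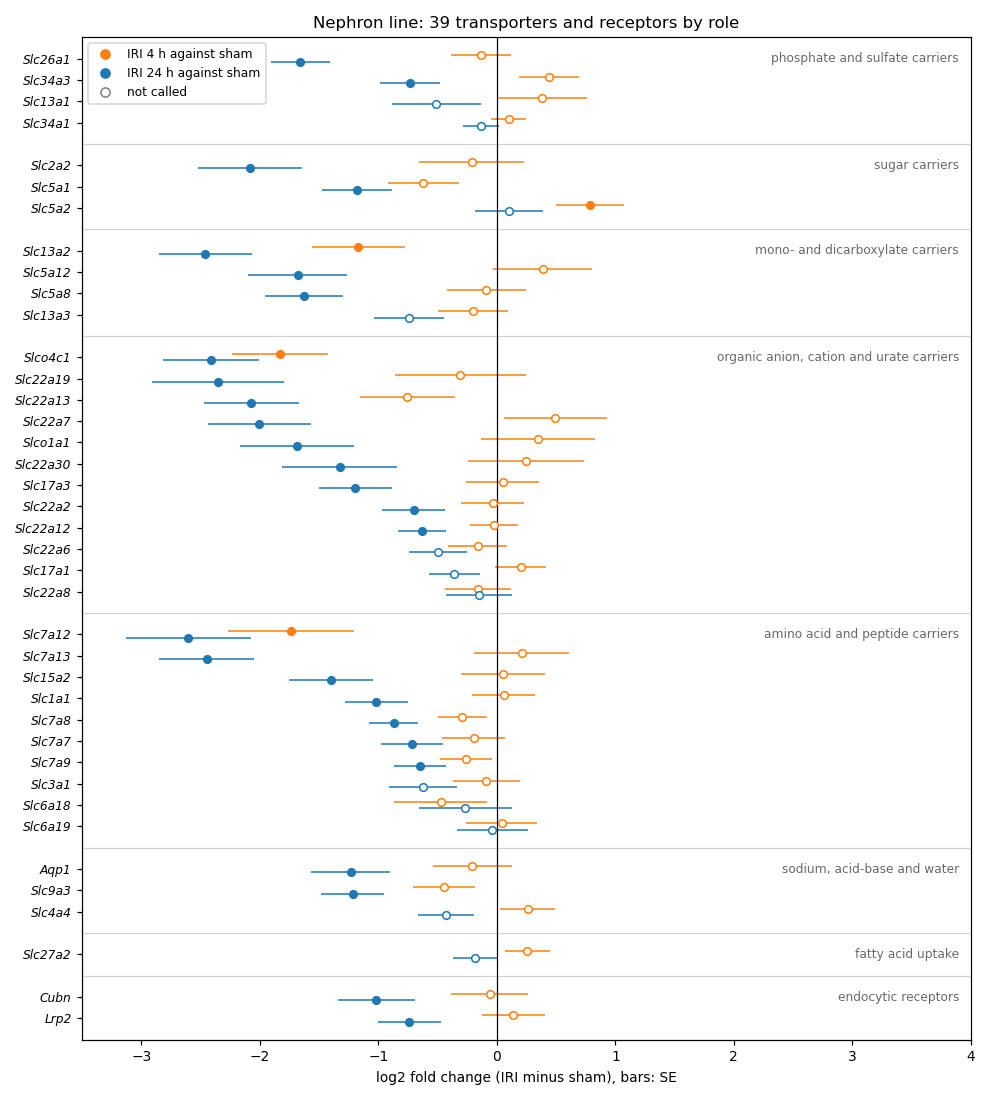
Log2 fold change of all 39 members in the nephron line at 4 h (orange) and 24 h (blue) after IRI against sham, grouped by role, with SE bars and filled symbols where called. At 24 h 27 members were called lower and at 4 h 3 lower and 1 higher.

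Among phosphate and sulfate carriers, 2 of 4 fell. Slc34a1, the main sodium-phosphate cotransporter of the brush border, read 13.13, 13.07 and 13.19 in the sham arrays and 13.10, 12.94 and 12.95 at 24 h. The groups overlapped, and the difference was -0.14 ± 0.15 (95% interval -0.44 to 0.17, adjusted p = 0.571). Slc34a3, the second phosphate cotransporter of this family, read 9.73, 10.02 and 10.31 after sham surgery and 9.34, 9.25 and 9.26 at 24 h, below every sham array (-0.74 ± 0.25, adjusted p = 0.0236). That call was lost without IRI replicate 2 or 3 or sham replicate 2 or 3, with differences from -0.88 to -0.59 over all settings. Slc26a1, a basolateral sulfate exchanger, also fell (-1.66 ± 0.25, adjusted p = 1.17e-06), and Slc13a1, the apical sulfate cotransporter, gave -0.51 ± 0.38 (adjusted p = 0.352).

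Of the sugar carriers, 2 of 3 fell. Slc5a2, the high-capacity glucose cotransporter of the early segments, read 10.73, 10.72 and 10.89 after sham surgery and 10.89, 10.97 and 10.78 at 24 h, with overlapping groups (0.10 ± 0.29, adjusted p = 0.841). Slc5a1, the high-affinity cotransporter of the late segment, read 10.19, 10.21 and 10.33 after sham surgery and 8.52, 9.49 and 9.18 at 24 h. All IRI arrays were lower and the gene fell (-1.18 ± 0.30, adjusted p = 0.00197). Slc2a2, the facilitative carrier through which glucose leaves the cell, read 10.92, 11.18 and 11.35 after sham surgery and 8.31, 9.80 and 9.09 at 24 h. It fell 4.25-fold (-2.09 ± 0.44, adjusted p = 0.000228), and its IRI arrays were spread over more than 1 log2 unit.

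Of the mono- and dicarboxylate carriers, 3 of 4 fell. Slc13a2, the apical citrate and dicarboxylate cotransporter, read 10.73, 10.80 and 11.08 after sham surgery and 8.52, 8.45 and 8.25 at 24 h, without overlap (-2.46 ± 0.39, adjusted p = 3.2e-06). The sodium-coupled lactate carriers Slc5a8 (-1.63 ± 0.33) and Slc5a12 (-1.68 ± 0.42) fell alongside it. Slc13a3, the basolateral dicarboxylate carrier, gave -0.74 ± 0.29 and did not pass (adjusted p = 0.0523), although its arrays did not overlap.

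Carriers of organic anions, cations and urate fell in 9 of 12. The basolateral organic anion exchangers that load drugs and toxins from blood were among the rest. Slc22a6 read 12.73, 12.77 and 12.79 after sham surgery and 12.30, 12.34 and 12.17 at 24 h, lower in every IRI array but not called (-0.50 ± 0.25, adjusted p = 0.138). Slc22a8 read 12.14, 12.12 and 12.40 after sham surgery and 12.14, 12.07 and 12.00 at 24 h, with overlap (-0.15 ± 0.28, 95% interval -0.72 to 0.41, adjusted p = 0.751). Slc22a12, the apical urate exchanger, read 12.84, 12.79 and 12.78 after sham surgery and 12.25, 12.21 and 12.06 at 24 h and fell (-0.63 ± 0.20, adjusted p = 0.0159), a call lost without IRI replicate 3.

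Other carriers of organic anions and urate were among the members with the largest falls. Slc22a13, a urate and nicotinate carrier, read 11.80, 11.84 and 11.91 after sham surgery and 9.62, 10.01 and 9.71 at 24 h (-2.07 ± 0.40, adjusted p = 6.96e-05). Slc22a19, an organic anion carrier, read 12.11, 11.93 and 11.65 after sham surgery and 9.30, 9.73 and 9.61 at 24 h (-2.35 ± 0.56, adjusted p = 0.000944). Slc22a7, another organic anion carrier, read 11.11, 10.85 and 10.80 after sham surgery and 9.31, 8.69 and 8.75 at 24 h (-2.01 ± 0.44, adjusted p = 0.00033). In none of the 3 did an IRI array reach a sham array. Slco1a1 and Slco4c1 belong to the organic anion transporting polypeptides. Slco1a1 read 11.57, 11.75 and 11.18 after sham surgery and 10.38, 9.44 and 9.63 at 24 h (-1.69 ± 0.48, adjusted p = 0.00596). Slco4c1, a basolateral carrier, read 7.88, 8.05 and 8.16 after sham surgery and 5.50, 5.77 and 5.58 at 24 h (-2.42 ± 0.41, adjusted p = 7.78e-06), so its IRI arrays lay close to the lower bound of log2 5 used to admit genes. The organic cation carrier Slc22a2 fell as well (-0.70 ± 0.27, adjusted p = 0.0428), and its call was lost with any 1 of the 6 arrays left out (-0.78 to -0.66 over all settings). Slc22a30 fell (-1.33 ± 0.49), a call lost without IRI replicate 2 or 3 or sham replicate 1 or 2 (-1.59 to -1.15 over all settings). Of the apical phosphate and urate carriers of the Slc17 family, Slc17a3 fell (-1.20 ± 0.31) and Slc17a1 was not called (-0.36 ± 0.21, adjusted p = 0.229).

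Of the amino acid and peptide carriers, 7 of 10 fell. Slc7a13, an aspartate and glutamate carrier of the late segment, read 12.25, 12.21 and 12.01 after sham surgery and 10.43, 9.55 and 9.14 at 24 h, all lower (-2.45 ± 0.40, adjusted p = 4.95e-06). Slc7a12, a related amino acid carrier, read 8.94, 9.32 and 9.98 after sham surgery and 6.19, 7.71 and 6.52 at 24 h (-2.60 ± 0.53, adjusted p = 0.000147). Slc3a1, which pairs with Slc7a9 to take up cystine and dibasic amino acids, read 12.46, 12.52 and 12.56 after sham surgery and 11.87, 11.91 and 11.89 at 24 h. Every IRI array was lower, yet the difference did not pass (-0.62 ± 0.28, adjusted p = 0.0993).

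Its partner Slc7a9 fell (-0.65 ± 0.22, adjusted p = 0.0214), a call lost without IRI replicate 1 or 3 or sham replicate 3 (-0.76 to -0.56 over all settings). Slc6a19, the main apical carrier of neutral amino acids, read 10.71, 11.02 and 11.25 after sham surgery and 10.87, 11.08 and 10.92 at 24 h, with overlapping groups (-0.04 ± 0.30, 95% interval -0.65 to 0.57). The related Slc6a18 also overlapped (-0.27 ± 0.39, adjusted p = 0.68). The peptide carrier Slc15a2 (-1.40 ± 0.35), the glutamate carrier Slc1a1 (-1.02 ± 0.27) and the basolateral carriers Slc7a8 (-0.87 ± 0.21) and Slc7a7 (-0.72 ± 0.26) fell. The call of Slc7a7 was lost without IRI replicate 1 or 3 or sham replicate 2 or 3, and with arrays centred on their median (-0.89 to -0.58 over all settings).

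Of the sodium, bicarbonate and water genes, 2 of 3 fell. Slc9a3, the apical sodium-proton exchanger, read 11.09, 11.33 and 11.29 after sham surgery and 10.28, 9.84 and 9.94 at 24 h (-1.22 ± 0.26, adjusted p = 0.000328). Aqp1, a water channel that is also known from thin descending limbs and some endothelium, read 12.07, 12.07 and 12.17 after sham surgery and 10.80, 10.76 and 11.04 at 24 h (-1.23 ± 0.33, adjusted p = 0.00362). Neither gene's groups overlapped. Slc4a4, the basolateral sodium-bicarbonate cotransporter, gave -0.43 ± 0.24 (adjusted p = 0.179), and Slc27a2, which takes up and activates fatty acids, -0.18 ± 0.19 (adjusted p = 0.544).

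Both endocytic receptors fell. Lrp2 (megalin) read 12.24, 12.29 and 12.37 after sham surgery and 11.62, 11.52 and 11.53 at 24 h, a 1.67-fold fall without overlap (-0.74 ± 0.27, adjusted p = 0.0322). Cubn (cubilin) read 11.88, 12.06 and 12.18 after sham surgery and 11.03, 10.97 and 11.07 at 24 h, a 2.02-fold fall (-1.02 ± 0.33, adjusted p = 0.0151). The Lrp2 call was lost with any 1 of the 6 arrays left out and with arrays centred on their median, at differences from -0.78 to -0.70. The Cubn call was lost without sham replicate 3 (-1.10 to -0.95 over all settings).

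**Figure D2:**
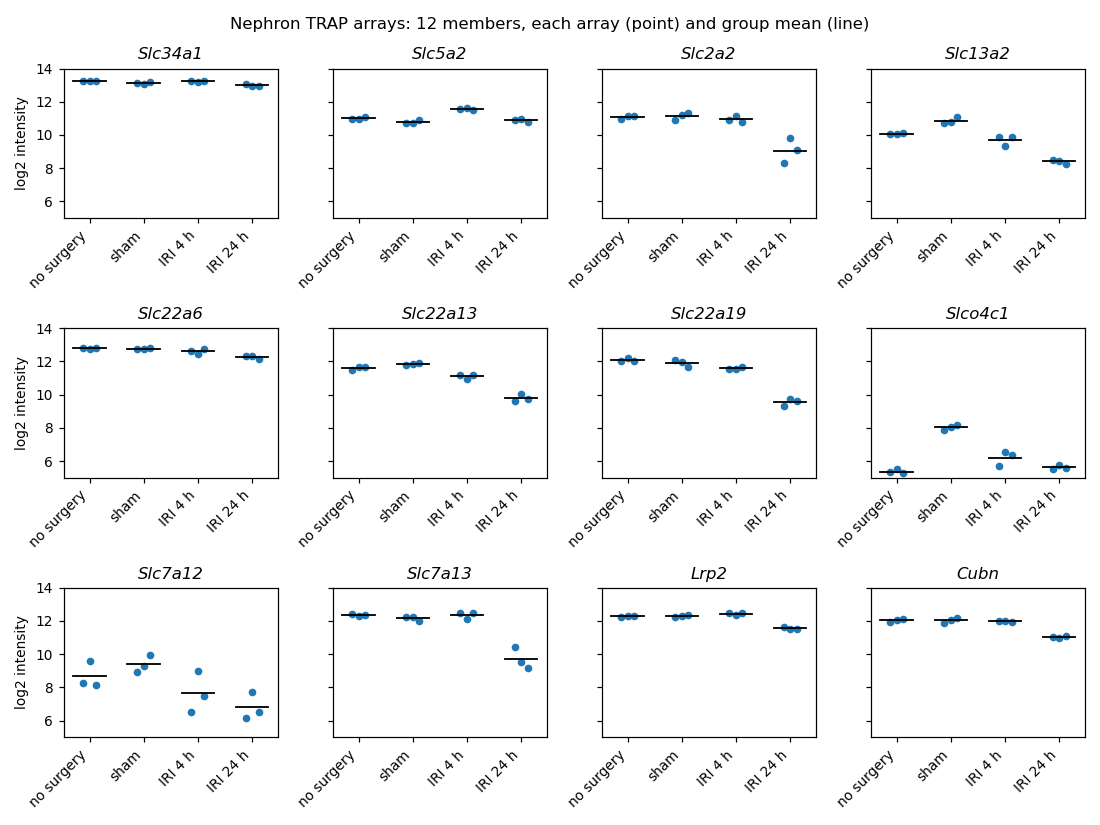
Log2 intensity of 12 members in each nephron array without surgery, after sham surgery and 4 h and 24 h after IRI (3 arrays each, black line: mean). Slc34a1 and Slc5a2 at 24 h overlap sham, while Slc2a2, Slc13a2, Slc22a13, Slc22a19 and Slc7a13 lie below every sham array.

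By segment, from lists set by general knowledge with earlier results known, 8 of 9 late (S3) members fell in the nephron line, with a median of -1.69, and 3 of 9 early (S1 and S2) members, with a median of -0.43. The early members that fell were Slc2a2, Slc5a12 and Slc7a8, and the late member that did not pass was Slc6a18. In the total RNA arrays the counts were 8 of 9 late and 5 of 9 early members, with medians of -1.82 and -0.62, and 6 and 3 without IRI replicate 3 (-2.003 and -0.606). In the wild-type background they were 6 of 9 and 3 of 9 (-1.20 and -0.23), and 7 and 3 without IRI replicate 2 (-1.47 and -0.33). Over all genes, 14.7% fell in the nephron line, 15.7% in total RNA and 17.7% in the wild-type background. Calls in the nephron line also differed by level, with 8 of 17 members at log2 12 or above and 19 of 22 below. Segment and level were not set apart, and the segments were not tested against each other.

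At 4 h, 3 members were lower and 1 higher, where 18.4% of all genes were called in either direction. The members' median was -0.06, and that of all genes -0.05. Slco4c1 read 5.69, 6.52 and 6.39 at 4 h, already below every sham array (-1.83 ± 0.41, adjusted p = 0.000785). These arrays lay above those without surgery, given below, which were themselves lower than sham. Slc13a2 read 9.85, 9.35 and 9.89 and was also below (-1.17 ± 0.39, adjusted p = 0.0303). Slc7a12 read 6.54, 9.00 and 7.47, where replicate 2 lay within the sham range (-1.74 ± 0.53, adjusted p = 0.0163).

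Slc5a2 was the member called higher at 4 h. Its arrays read 11.57, 11.61 and 11.51, all above sham (0.79 ± 0.29, adjusted p = 0.0479), and the call was lost with any 1 of the 6 arrays left out (0.76 to 0.84 over all settings). The count of 4 became 1 or 2 with any 1 of these arrays left out. Slco4c1 kept its call in each of those fits. A fit of these groups alone called 11 (4 higher, 7 lower) and array weights gave 7. Slc34a1 (13.25, 13.20 and 13.25), Lrp2 (12.49, 12.34 and 12.49) and Cubn (12.01, 11.97 and 11.96) were not called at 4 h, with differences of 0.10, 0.14 and -0.06. No sham arrays at 4 h were analysed here, and the 24 h sham group served both times.

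Between 4 h and 24 h, 23 members fell and 0 rose (27 lower and 0 higher at an unadjusted p under 0.05 with limma), where 12.7% of all genes fell. The median was -0.87, and a fit of these groups alone called 33 lower and 0 higher. Slc7a13 changed by -2.66 ± 0.40, Slc22a7 by -2.50 ± 0.44, Slc5a12 by -2.07 ± 0.42, Slc22a19 by -2.05 ± 0.56, Slco1a1 by -2.03 ± 0.48 and Slc2a2 by -1.87 ± 0.44. Slco4c1, lower at 4 h already, gave -0.58 ± 0.41 (adjusted p = 0.338). Slc13a2 fell at both steps, by -1.17 ± 0.39 to 4 h and -1.29 ± 0.39 from there. Lrp2 (-0.88 ± 0.27) and Cubn (-0.96 ± 0.33) fell between these times.

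Sham surgery against no surgery in the nephron line called 1 member, where 1.74% of all genes were called. Slco4c1 read 5.33, 5.49 and 5.26 without surgery and 7.88, 8.05 and 8.16 after sham surgery (2.67 ± 0.41, adjusted p = 6.13e-05). Its level 24 h after IRI (5.50 to 5.77) lay just above that of mice without surgery. The difference was 2.61 to 2.75 in all settings tried, among them each array left out. Mice without surgery were 6 weeks old and sham mice 8, and age and surgery cannot be told apart. In the interstitial line, where both groups were 6 weeks old, Slco4c1 read 8.02, 5.96 and 8.05 without surgery and 7.29, 8.33 and 9.05 after sham surgery. Fitted alone, the 2 nephron groups gave 4 calls (3 higher, 1 lower), and array weights gave 2. Slc13a2 was among the uncalled members (0.79 ± 0.39, adjusted p = 0.425).

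Members were enriched in nephron arrays without surgery. Against the mean of the other 3 lines, 33 members were higher and 1 lower, where 29% of all genes were higher. The median difference was 1.38, and 0.06 over all genes. Slc7a12 stood out by 3.21 ± 0.43, Slc22a30 by 2.38 ± 0.40, Slc7a9 by 2.33 ± 0.18 and Slc26a1 by 2.24 ± 0.20. Slc34a1 was higher by 0.52 ± 0.12 and read 13.24, 13.24 and 13.25 in nephron, 13.03, 12.72 and 13.06 in interstitial, 12.30, 12.31 and 12.82 in endothelial and 12.94, 12.53 and 12.84 in myeloid arrays. Lrp2 (-0.11 ± 0.22) and Cubn (0.09 ± 0.27) did not differ beyond the error, and Slc22a7, Slc22a13 and Slc7a13 did not pass. Slco4c1 was the member called lower (-1.42 ± 0.33, adjusted p = 0.000324).

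The same genes were read in purifications directed at other cells and in kidneys without a tag. In sham arrays of the wild-type background Slc34a1 read 13.30 and 13.23, Lrp2 13.43 and 13.43 and Slc2a2 11.65 and 11.50. Nephron sham arrays differed from these in 10 members, 5 higher and 5 lower, where 48.3% of all genes were called in either direction. Higher in the nephron line were Slco1a1 (1.46 ± 0.54), Slc13a3 (1.02 ± 0.33), Slc22a6 (0.97 ± 0.28), Slc22a12 (0.87 ± 0.23) and Slc7a9 (0.74 ± 0.25). Lower were Slco4c1 (-2.74 ± 0.45), Cubn (-1.29 ± 0.37), Lrp2 (-1.13 ± 0.30), Slc15a2 (-1.08 ± 0.40) and Slc5a2 (-0.76 ± 0.32). The count was 4 without wild-type sham replicate 2, which left Slco4c1, Slc22a12, Lrp2 and Cubn, and 27 (10 higher, 17 lower) in a fit of these groups alone.

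At 24 h after IRI, nephron and wild-type background arrays differed in 7 members (2 higher, 5 lower), where 44% of all genes were called. Cubn (-1.18 ± 0.31) and Lrp2 (-1.10 ± 0.25) were lower in the nephron arrays, as were Slc7a13 (-1.97 ± 0.37), Slc9a3 (-0.66 ± 0.25) and Slc4a4 (-0.57 ± 0.22). Slc7a12 (1.54 ± 0.50) and Slc7a9 (0.63 ± 0.21) were higher. Lrp2, Cubn and Slc7a13 kept their calls in every setting tried. The count was 3 without nephron IRI replicate 2, 11 with array weights and 8 (5 higher, 3 lower) without wild-type IRI replicate 2, where Slc4a4 and Slc9a3 did not pass. What share of the nephron signal of these genes came with the tag was not tested.

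**Figure D3:**
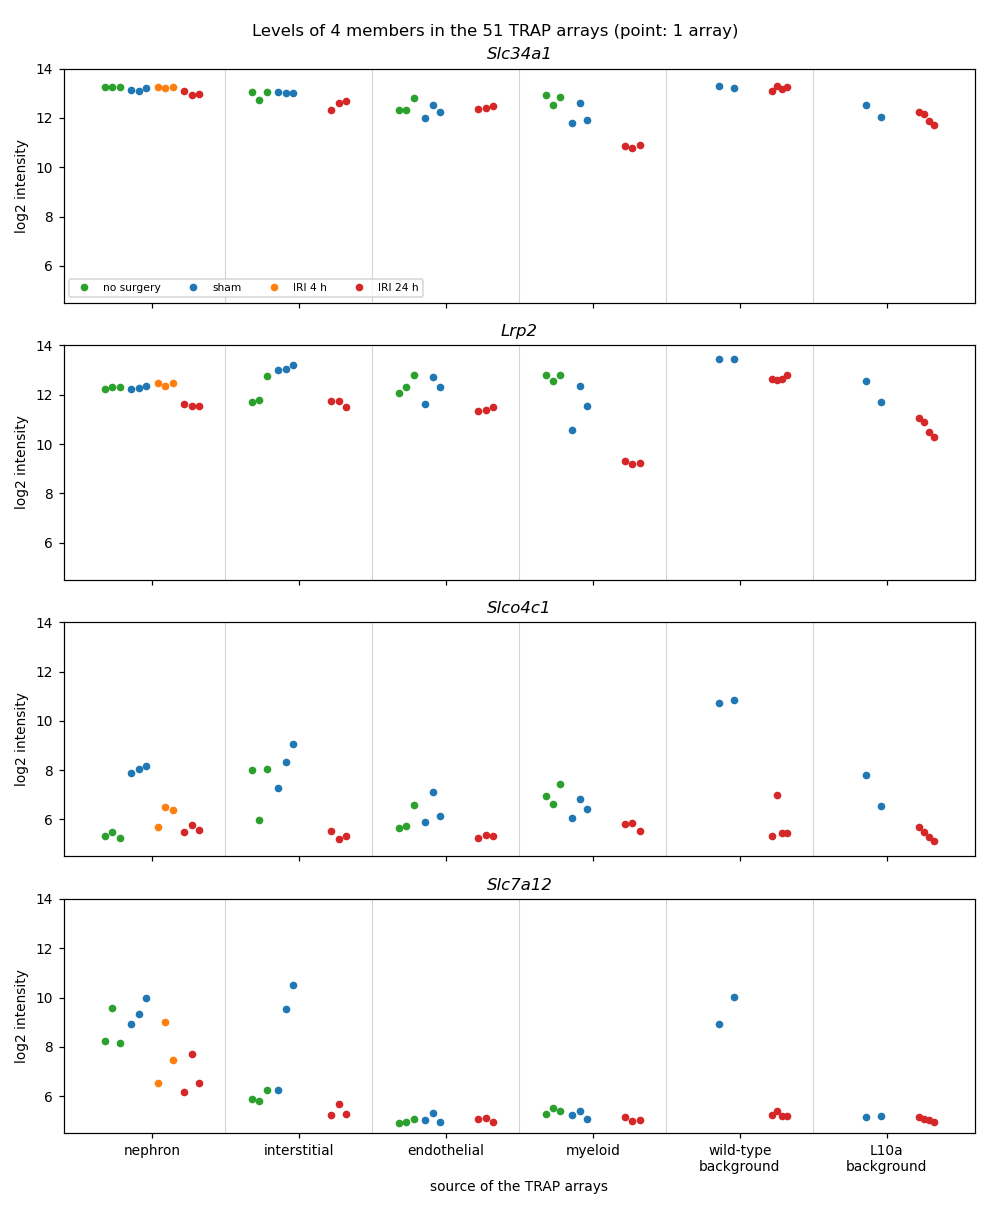
Log2 intensity of Slc34a1, Lrp2, Slco4c1 and Slc7a12 in each of the 51 TRAP arrays by source and condition (1 point per array). Slc34a1 and Lrp2 lie above log2 9 in every array, also without a tag, while Slc7a12 exceeds log2 8 only in nephron arrays other than those at 24 h and in interstitial and wild-type sham arrays.

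After IRI the members fell in whole-kidney total RNA as well: 30 fell and 0 rose, where 15.7% of all genes fell (35 lower and 0 higher at an unadjusted p under 0.05 with limma). The median was -1.08. Markers of other tubule segments fell in the same arrays: 7 of 7 thick ascending limb and distal tubule genes fell (median -1.07, mean log2 level 10.03 to 10.22 in sham and 8.44 to 8.99 in IRI arrays), and 4 of 7 collecting duct genes (8.51 to 8.82 and 7.67 to 7.79). Slc22a19 read 11.03, 11.15 and 10.92 after sham surgery and 8.58, 6.21 and 7.36 after IRI (-3.65 ± 0.56, adjusted p = 1.99e-06). Lrp2 read 12.23, 12.32 and 12.22 after sham surgery and 11.48, 10.96 and 10.84 after IRI (-1.17 ± 0.27), and Cubn 11.55, 11.72 and 11.66 after sham surgery and 10.85, 10.17 and 9.69 after IRI (-1.41 ± 0.33), all lower after IRI. Without IRI replicate 3 these changes were -3.64 for Slc22a19, -1.04 for Lrp2 and -1.13 for Cubn, all called. Slc34a1 read 12.83, 12.83 and 12.91 after sham surgery and 12.35, 12.32 and 12.67 after IRI and fell (-0.41 ± 0.15, adjusted p = 0.0328), a call lost in 8 of 16 settings, among them without total RNA IRI replicate 1 or 2 or any of the sham replicates (-0.52 to -0.33 over all settings).

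The 3 total RNA arrays after IRI were far apart for some members. Slc2a2 read 10.46, 7.85 and 7.07, so that replicate 1 lay above all sham arrays (10.08, 10.27 and 10.28), and its fall was -1.06 without replicate 3, which did not pass (adjusted p = 0.0674), and -2.75 without replicate 1. Slc7a13 read 9.40, 9.69 and 11.23 against 12.32, 12.12 and 11.61. The count was 26 without replicate 3, the array with less Havcr1, and 23 to 31 with any 1 of the 6 arrays left out. A fit of the 6 arrays alone called 9. Between the nephron and total RNA responses 0 members differed, where 3.4% of all genes were called (1 higher and 0 lower at an unadjusted p under 0.05 with limma). The count was 0 without IRI replicate 3 and 1, Slc5a12, without IRI replicate 1.

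The fall of the members extended to purifications directed at other cells. In the interstitial line 35 fell and 0 rose, where 19.9% of all genes fell, with a median of -1.42 (37 lower and 0 higher at an unadjusted p under 0.05 with limma). In the myeloid line 27 fell and 0 rose, where 14.6% fell, with a median of -1.12 (31 lower and 0 higher unadjusted). Thick ascending limb and distal tubule genes fell in 4 of 7 in the interstitial line (mean log2 level 10.57 to 10.73 in sham and 9.42 to 9.57 in IRI arrays) and in 5 of 7 in the myeloid line (9.47 to 9.94 and 8.29 to 8.62). Collecting duct genes fell in 3 of 7 in the interstitial (8.65 to 9.01 and 8.20 to 8.45) and 5 of 7 in the myeloid line (9.57 to 9.82 and 8.47 to 8.50), and 6 of 6 injury genes rose in both. The part of these shifts, and of those in total RNA, in the members' falls was not tested. The myeloid IRI mice were 9.5 weeks old and their sham controls 7, and age and IRI cannot be told apart there. Cubn read 12.70, 12.92 and 13.11 in interstitial sham and 11.06, 11.12 and 10.93 in interstitial IRI arrays (-1.87 ± 0.33), and 9.92, 11.86 and 11.04 in myeloid sham and 8.35, 8.25 and 8.43 in myeloid IRI arrays (-2.60 ± 0.33). Slc34a1 fell in both lines (-0.49 ± 0.15 and -1.27 ± 0.15). Slc7a12 read 6.27, 9.55 and 10.50 in the interstitial sham arrays and 5.25, 5.68 and 5.28 after IRI. Its difference was -3.37 ± 0.53, or -4.62 without sham replicate 1 and -2.51 without sham replicate 3.

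Endothelial arrays showed a mixed picture: 6 members fell and 3 rose, where 42.8% of all genes were called in either direction. The share of members called was smaller, and 49.3% of all genes called were higher. Of 7 thick ascending limb and distal tubule genes, 1 fell and 1 rose there, and 2 of 7 collecting duct genes fell. The median was -0.10. Slc22a19 (-3.35 ± 0.56), Slc22a13 (-2.50 ± 0.40), Slc15a2 (-1.25 ± 0.35), Cubn (-1.14 ± 0.33), Slco4c1 (-1.06 ± 0.41) and Lrp2 (-0.80 ± 0.27) fell. Slc5a2 read 8.31, 9.17 and 8.30 after sham surgery and 9.60, 9.80 and 9.89 after IRI and rose (1.17 ± 0.29, adjusted p = 0.000784). Slc1a1 (0.97 ± 0.27) and Slc6a19 (0.79 ± 0.30) rose too. The calls of Cubn and Lrp2 were lost without endothelial sham replicate 2 (-0.84 and -0.55). The endothelial sham arrays read 11.01, 12.35 and 11.85 for Cubn, replicate 2 being the highest. That of Slc6a19 was lost without endothelial IRI replicate 2 or 3, sham replicate 1 or 3 and with arrays centred on their median, and that of Slco4c1 without sham replicate 2 or any 1 of the IRI arrays. A fit of the endothelial groups alone called 16 (4 higher, 12 lower), and array weights 19.

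The responses of the nephron and endothelial lines were compared directly, a comparison added after seeing the data. In 14 members the nephron change lay below the endothelial one and in 0 above it, where 32.9% of all genes differed in either direction. Among the 14, Slc5a2 rose in the endothelial line and was not called in the nephron line, and Slc13a3 was not called in the nephron line either. Of all genes called, 49.7% had a positive difference. The share of members called was close to that of all genes, but all lay in 1 direction. At an unadjusted p under 0.05 with limma, 18 members were lower and 0 higher. The differences were -2.58 ± 0.75 for Slc7a12, -2.36 ± 0.56 for Slc13a2, -2.08 ± 0.35 for Slc26a1, -1.99 ± 0.38 for Slc1a1 and -1.80 ± 0.37 for Slc9a3. The count ran from 8 without endothelial sham replicate 1 and 9 without nephron IRI replicate 1 to 17 without endothelial sham replicate 2, with 9 after centring and 23 with array weights.

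Against the mean response of the 3 other lines, 4 members differed, where 23% of all genes did. Slc26a1 (-1.15 ± 0.29), Slc9a3 (-1.05 ± 0.30) and Slc7a8 (-0.81 ± 0.24) had the more negative change in the nephron line, and Slc27a2 the less negative one (0.68 ± 0.22). The count was 2 without nephron IRI replicate 1, 7 without endothelial sham replicate 1, 8 without myeloid sham replicate 1, 9 in a fit of these groups alone and 14 with array weights.

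Members also fell in the background purifications. In the wild-type background 19 members fell and 0 rose, where 17.7% of all genes fell, with a median of -0.79 (25 lower and 0 higher at an unadjusted p under 0.05 with limma). Slco4c1 read 10.70 and 10.84 after sham surgery and 5.33, 6.99, 5.45 and 5.43 after IRI (-4.97 ± 0.43, adjusted p = 1.64e-12). Slc7a12 read 8.94 and 10.03 after sham surgery and 5.24, 5.41, 5.21 and 5.21 after IRI (-4.22 ± 0.56). Slc22a13 read 12.79 and 12.87 after sham surgery and 8.88, 11.05, 8.75 and 8.89 after IRI (-3.44 ± 0.42), with replicate 2 apart from the rest.

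Without that replicate, the changes were -5.37 for Slco4c1, -4.79 for Slc22a19, -4.27 for Slc7a12 and -3.99 for Slc22a13, and 23 members were called. The count was 12 without wild-type sham replicate 2. In the L10a background 10 members fell and 1 rose, with a median of -0.51. There 38.4% of all genes were called in either direction, 49.4% of them higher, and the share of members called was smaller. Slc9a3 rose there, from 9.02 and 8.76 to 10.02, 10.18, 9.82 and 10.09 (1.13 ± 0.28, adjusted p = 0.00113). Cubn fell from 11.96 and 10.92 to 9.70, 9.68, 9.32 and 9.03 (-2.01 ± 0.35). The others that fell were Slc22a19 (-2.44 ± 0.59), Slc22a13 (-2.07 ± 0.42), Slco4c1 (-1.77 ± 0.43), Lrp2 (-1.47 ± 0.28), Slc6a18 (-1.40 ± 0.42), Slc3a1, Slc15a2, Slc7a13 and Slc17a3. The count was 4 (Cubn, Lrp2, Slc22a13 and Slc9a3) without L10a sham replicate 1, 17 without L10a sham replicate 2 and 22 with array weights.

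The nephron and wild-type background responses, a comparison added after seeing the data, differed in 2 members, where 22.5% of all genes were called. Slco1a1 fell in the nephron line and not in the background (10.63 and 9.45 after sham surgery, 8.69, 11.56, 11.01 and 11.08 after IRI), a difference of -2.23 ± 0.70 (adjusted p = 0.0169). That call was lost without wild-type sham replicate 2 (-1.64) and in a fit of these groups alone. Slco4c1 fell in both, and less in the nephron line (2.56 ± 0.59, adjusted p = 0.00123). The count was 7 without wild-type IRI replicate 1, 5 without IRI replicate 2, 1 without sham replicate 2 and 11 with array weights.

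Across the 7 comparisons at 24 h, each with its own sham arrays, 5 members fell in all 7, where 2.08% of all genes did (401 of 19302): Cubn, Lrp2, Slc15a2, Slc22a13 and Slc22a19. Their least negative changes were -0.74 for Lrp2, -1.02 for Cubn, -1.02 for Slc15a2, -2.07 for Slc22a13 and -2.35 for Slc22a19. Single calls among these were lost when an array was left out: those of Lrp2 and Cubn as given above for the nephron and endothelial lines, and in the wild-type background without sham replicate 2 (Lrp2 also without sham replicate 1). Those of Slc15a2 and Slc22a19 in the L10a background were lost without sham replicate 1, and that of Slc15a2 in the myeloid line without IRI replicate 1 or 3 or sham replicate 2. Slc22a13 kept its call in every source and setting tried. Slco4c1 fell in 6, with the myeloid line as the exception (-0.70 ± 0.41). Slc5a2, Slc6a19 and Slc22a8 fell in 0 of the 7. Slc34a1 fell in 3, the interstitial and myeloid lines and total RNA.

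**Figure D4:**
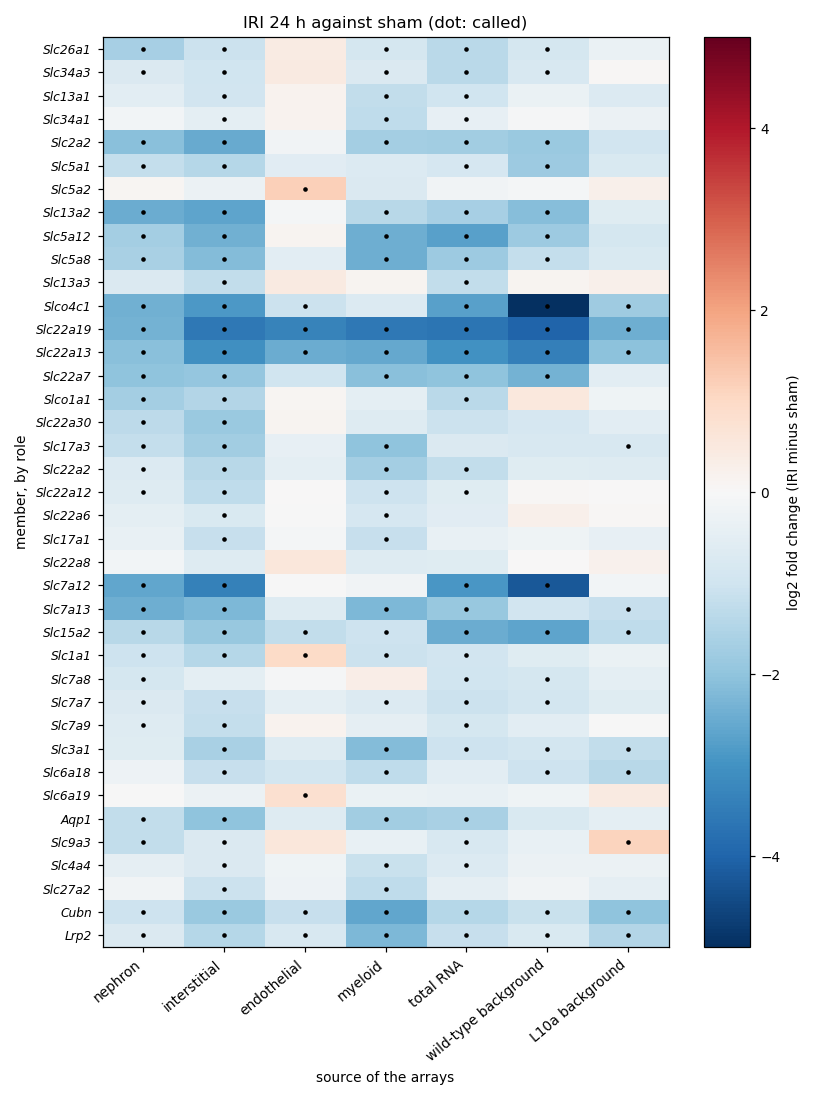
Log2 fold change at 24 h after IRI against sham for the 39 members (rows, by role) in 7 sources of arrays (columns). Blue is lower and red higher after IRI, and a dot marks a call. Cubn, Lrp2, Slc15a2, Slc22a13 and Slc22a19 carry a dot in every column, and Slc5a2 is red with a dot in the endothelial column.

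Related genes outside the members were counted from lists of general knowledge, with earlier results known. Over all genes tested, 14.7% fell and 13.8% rose in the nephron line at 24 h. Of 43 measured further carriers and pumps of the proximal tubule, 19 fell and 7 rose, with a median of -0.41, and the share that rose was close to that of all genes. Slc22a26, an organic anion carrier (-2.60 ± 0.35), Slc2a5, the fructose carrier (-2.53 ± 0.40), Slc16a9 (-2.09 ± 0.35) and Slc6a13, a carrier of gamma-aminobutyric acid (-1.92 ± 0.38), fell most. The efflux pumps Abcb1a (1.91 ± 0.20), Abcb1b (1.15 ± 0.28) and Abcc4 (1.49 ± 0.35) and the lactate carrier Slc16a1 (1.76 ± 0.24) rose.

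Of 10 measured scaffolds and subunits of apical carriers, 6 fell and 1 rose. Pdzk1, the scaffold of brush border carriers (-1.86 ± 0.46), the carbonic anhydrases Car14 (-1.76 ± 0.40) and Car4 (-0.62 ± 0.22) and Slc9a3r1, the regulator that anchors Slc9a3 and Slc34a1 (-0.56 ± 0.16), fell, while Ezr, which links the brush border to actin, rose (0.55 ± 0.15). Of 17 measured endocytic partners of megalin and cubilin, 1 fell and 4 rose, counts too small to set apart from those shares. Lrpap1, the chaperone of megalin, fell (-0.59 ± 0.16), and the lysosomal proteases Ctsl (0.57 ± 0.16) and Ctsb (0.37 ± 0.13), the clathrin adaptor subunit Ap2b1 (0.56 ± 0.19) and Gipc1, an adaptor of the megalin tail (0.39 ± 0.13), rose. Of 12 measured transcription factors of proximal tubule identity and metabolism, 8 fell and 0 rose, among them Hnf4a (-0.83 ± 0.26), Hnf4g (-0.92 ± 0.27), Esrra (-1.03 ± 0.14) and Ppargc1a (-1.22 ± 0.43).

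Markers of other states and cells moved with the fall. In the nephron line 5 of 6 measured tubular injury genes rose, and their mean log2 level ranged from 8.90 to 9.43 in sham arrays and from 11.73 to 11.92 at 24 h. Of 7 thick ascending limb and distal tubule genes 4 fell (10.86 to 10.97 in sham and 9.63 to 9.90 in IRI arrays), and of 7 collecting duct genes 4 fell and 1 rose. Endothelial markers rose in 4 of 7 (7.14 to 7.35 in sham and 7.70 to 8.00 in IRI arrays), against 12.31 to 12.41 in the endothelial sham arrays. Markers of macrophages, monocytes and dendritic cells rose in 2 of 7 and fell in 1 (7.00 to 7.07 in sham and 7.46 to 7.80 in IRI arrays), against 12.35 to 12.44 in the myeloid sham arrays. In the wild-type sham arrays, with no tag, endothelial markers read 10.46 to 10.56 and interstitial markers 10.65 to 10.71, against 10.74 to 11.03 in the interstitial sham arrays. No array intensity is 0. The part of the nephron line's marker shifts in the members' falls was not tested.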

How the data were processed

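The deposited values are intensities on a linear scale for 35556 probe sets, made with RMA in Affymetrix Expression Console 1.3.1 per the submitters' processing notes. The authors deposited them as 1 table of 57 arrays in 19 groups, and log2 of these deposited intensities was taken here. The plan had assumed log2 values in the table, and the planned tests were run on the log2 values. The comparisons of the nephron response with the endothelial and wild-type background responses were added after seeing the data. RMA scales the arrays of 1 run together and compresses differences of dim probe sets. Whether all 57 arrays formed 1 run was not tested. Their median intensities differed by kind (105.8 to 128.4 for TRAP, 43.9 to 53.3 for total RNA). The number of arrays limits the precision.

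Of the probe sets, 21789 carry 1 gene symbol, 1621 several and 12146 none, per the platform annotation. A gene was read from a probe set with 1 symbol, the one with the highest mean where it had several. The 19302 genes above log2 5 in at least 3 arrays were tested in 1 limma fit (limma 3.58.1, R 4.3.3) over all groups, with 38 residual degrees of freedom, and adjusted by Benjamini-Hochberg. Figures were drawn with matplotlib 3.10.9.

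Every member could be named. Values by array are given for a panel of 17 members and for the 8 called members with the largest change at 24 h in the nephron line, and up to 4 called genes per direction are named from each list of related genes. Members, lists, promoter motifs and panel were chosen with earlier results of these data known. In data simulated from the nephron groups at 24 h over 19302 genes, the fit recovered 80% of genes changed 1.5-fold, 96% at 2-fold, 98% at 3-fold and 100% at 4-fold, with 3.61% false calls. These rates are for all genes and do not carry over to the members, whose residual SD is larger (median 0.38 against 0.154). Alternatives were other scalings (quantile, centring on the median), dim-gene filters, probe-set rules, sets of arrays, array weights, prior, replicate block and each array left out.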

Additional observations from a re-analysis of the deposited data

Results flagged for a closer look

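In the wild-type background, IRI replicate 2 lay apart from the other 3 arrays for 3 members, where the gap to the nearest array is given as a share of the group's range. The shares were 0.942 for Slc22a13 (11.05 against 8.75 to 8.89), 0.924 for Slco4c1 (6.99 against 5.33 to 5.45) and 0.848 for Slc7a12 (5.41 against 5.21 to 5.24). IRI replicate 1 of that group lay below the others for Slc22a8 (0.845; 11.57 against 12.22 to 12.34) and Slc9a3 (0.834; 10.01 against 10.84 to 11.01). In the L10a background, IRI replicate 1 lay above the others for Slc7a9 (0.84; 7.45 against 7.10 to 7.15). Chance gives such a gap in about 1 of 20 groups, and 78 sets of 1 member and 1 group were examined.

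The response at 24 h differed between the nephron line and the mean of the other 3 lines, by the limma test of the difference, for Slc26a1 (-1.15), Slc9a3 (-1.05), Slc7a8 (-0.81) and Slc27a2 (0.68). Against the endothelial line it differed for 14 members: Slc7a12 (-2.58), Slc13a2 (-2.36), Slc26a1 (-2.08), Slc1a1 (-1.99), Slc2a2 (-1.92), Slc7a13 (-1.80), Slc5a12 (-1.80), Slc9a3 (-1.80), Slco1a1 (-1.80), Slc34a3 (-1.20), Slc13a3 (-1.18), Slc5a2 (-1.07), Slc7a9 (-0.82) and Slc7a8 (-0.80). Against the wild-type background it differed for Slco1a1 (-2.23) and Slco4c1 (2.56). The call of Slco1a1 was lost without wild-type sham replicate 2 (-1.64) and in a fit of the groups compared. The calls of Slc7a8 and Slc27a2 were lost without nephron IRI replicate 1.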

How the results depend on the processing

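No member that was called in any of the 17 comparisons changed direction under the alternatives run. With any 1 array left out, the number of members called ran from 20 to 24 in the nephron line at 24 h (27 with all arrays) and from 1 to 2 at 4 h (4). It ran from 16 to 20 between 4 h and 24 h (23), stayed at 1 for sham against no surgery, and ran from 31 to 35 in the interstitial (35), 7 to 11 in the endothelial (9) and 19 to 28 in the myeloid line (27). In total RNA it ran from 23 to 31 (30), in the wild-type background from 12 to 23 (19) and in the L10a background from 4 to 17 (11). For nephron against the other lines without surgery it ran from 33 to 36 (34), and for nephron against wild-type background from 4 to 9 after sham surgery (10) and 3 to 8 after IRI (7). For the difference of responses it ran from 2 to 8 against the other lines (4), 8 to 17 against the endothelial line (14), 0 to 1 against total RNA (0) and 1 to 7 against the wild-type background (2). Fitting only the groups compared gave 11 at 4 h, 4 for sham against no surgery, 16 in the endothelial line, 9 in total RNA, 27 for nephron against wild-type background after sham surgery and 9 for the response against the other lines. Array weights gave 7 at 4 h, 2 for sham against no surgery, 19 in the endothelial line, 22 in the L10a background, 11 for nephron against wild-type background after IRI, and 14, 23 and 11 for the response against the other lines, the endothelial line and the wild-type background. Centring each array on its median gave 9 for the response against the endothelial line. Groups fitted alone gave 33 in the nephron line at 24 h and 33 between 4 h and 24 h. The cause of these shifts was not tested. Replicate numbers were not used to pair the samples. In no comparison did all same-numbered pairs correlate above 0.1, but 2 of 3 interstitial pairs did. The highest correlations were 0.294 for nephron sham against no surgery and 0.315 in the L10a background. With so few pairs this check cannot exclude pairing. With the replicate block the count was 26 at 24 h and 3 at 4 h in the nephron line, and it moved no count by over 1.5 times. Centring also moved the share of higher calls among all genes called, from 41.4% to 52.1% at 4 h, 43% to 25.6% for sham against no surgery, 47.4% to 58.3% in the myeloid line, 50.1% to 30.8% in total RNA and 49.4% to 38% in the L10a background. For nephron against wild-type background after IRI that share went from 57.4% to 74.2%, and for the response from 41.6% to 78.5% against total RNA, 49.7% to 61% against the endothelial line and 44.1% to 59.6% against the wild-type background. The median of all genes shifted by over 0.1 in total RNA (0.055 to -0.053), for nephron against wild-type background after IRI (-0.004 to 0.115), and for the response against total RNA (-0.061 to 0.089) and the wild-type background (-0.084 to 0.029), and changes there are relative to it. The fit of 45 arrays without the background arrays was not run for comparisons that use those arrays.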
